A study of Mus musculus with 12 samples.

Results

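Receptors that let microglia bind antibody, a signalling subunit and an Fc receptor-like gene were examined through the histone mark H3K27ac. The 6 genes were Fcgr1, Fcgr3, Fcgr4, Fcgr2b, Fcer1g (the subunit) and Fcrls (the receptor-like gene). The genes were chosen by name. Every 1000 bp window assigned to one of them and lying within 100 kb of its transcription start site (TSS) was taken, which gave 39 of 67822 windows and 6 of 15879 genes with a window. The windows were read singly and summed per gene.

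The mark, an acetyl group on a lysine in the tail of histone H3, is found at active promoters and enhancers. It was profiled by chromatin immunoprecipitation in CD11b+ cells of the forebrain, isolated with magnetic beads, from 2 genotypes of mice. The wild type was C57BL/6N, and the knockout carried a disrupted Cias1 gene (an older name of Nlrp3; Nlrp3-/-, from Millennium Pharmaceuticals), the sensor of an inflammasome. Each genotype had 3 H3K27ac libraries and 3 libraries of input chromatin. No treatment is named, and no label states age or sex, or the strain background of the knockout. The series title places the work in Alzheimer's disease, but the labels name no disease model.

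The Fc gamma receptors bind the constant part of immunoglobulin G. Activating receptors pass the signal through a shared subunit, the Fc receptor gamma chain, whose ITAM motif recruits the kinase Syk and leads to phagocytosis and cytokine release. An inhibitory receptor of the same family carries an ITIM motif and recruits a lipid phosphatase that dampens the signal. Microglia express both kinds and use them to take up antibody-coated material.

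Between 3726550 and 5028129 tags were counted in each H3K27ac library, 39.14% to 46.06% of them inside windows. Input libraries had from 3287009 to 6961590 tags, with 8.31% to 9.32% inside windows. At the more affected Nlrp3 promoter window the wild-type libraries held 180, 180 and 195 H3K27ac tags and the knockout libraries 1, 0 and 16, as the genotype labels say. All 10 homeostatic microglia markers had a promoter window, and the median ratio of their H3K27ac to input was 9.52 (wild type) and 15.5 (knockout). Their H3K27ac alone overlapped between genotypes, in tags scaled to the same library total (CPM). Summed over these promoters it was 205.9 to 243.1 CPM in wild type and 208.9 to 248.2 CPM in the knockout. Over all windows of these genes the median log2 fold change was 0.025, with 5 of 10 positive. The difference between the ratios was not tested. Promoter medians for astrocyte, neuron, B cell, NK and T cell, oligodendrocyte, endothelial and border macrophage markers lay between 0.494 and 1.75 times input in wild type and between 0.614 and 2.95 in the knockout, each over 1 to 3 promoters. Of 10 monocyte and neutrophil markers, 5 had a window and only 1, Csf3r, had a promoter window. Its ratio to input was 19.5 (wild type) and 32.3 (knockout), while its promoter H3K27ac overlapped, with 25.28 to 38.73 CPM and 34.21 to 43.47 CPM. The part of such cells, which also carry Fc receptors, in the values that follow was not tested. In chromatin from many cells, fewer marked cells and less mark per cell cannot be told apart either. Wild-type replicate 1 held 0 tags at the promoters of 3 Y-linked genes, against 183 to 239 in the other 5 H3K27ac libraries.

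Summed over the windows assigned to each gene, H3K27ac stood well above input at 5 of the 6 genes in both genotypes. It was lowest at the inhibitory receptor Fcgr2b, at 3.63 times input in both genotypes. Among all genes with a window the Fcgr2b sum was not low, standing above 64.3% of them in wild type and 65.8% in the knockout. That sum covers 5 windows, against a median of 2 per gene. At the start alone Fcgr4 averaged less than Fcgr2b, with overlapping ranges. The means were 3.63 against 5.21 CPM in wild type and 4.69 against 5.98 CPM in the knockout. The higher sum of Fcgr4 thus rests on distal windows given to it as the nearest start, the highest of which lies between the starts of these genes. No member gene and no member window passed the test between genotypes. The 95% intervals of the 6 gene sums held changes from 0.667-fold (Fcrls) to 1.62-fold (Fcgr2b), so changes of 2-fold or more lay outside all of them. Intervals of some single windows included 2-fold changes, as at the Fcgr4 start, from -1.07 to 1.87 on the log2 scale.

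The 4 promoters that follow are printed because they share a short motif. They run from 250 bases before to 50 bases after the annotated start, on the gene's own strand, from RefSeq (GRCm38.p6), where all 6 genes were matched. Capitals mark the core of the site bound by PU.1, the transcription factor of the macrophage lineage (GAGGAA, or TTCCTC when it lies on the other strand), and the matches of 3 further motifs given after the sequences. Fcgr1 is at chr3:96293920-96294219, minus strand, Fcgr3 (first of 2 start sites) at chr1:171059354-171059653, minus strand, Fcgr4 at chr1:171018676-171018975, plus strand, and Fcrls at chr3:87263475-87263774, minus strand.
Fcgr1: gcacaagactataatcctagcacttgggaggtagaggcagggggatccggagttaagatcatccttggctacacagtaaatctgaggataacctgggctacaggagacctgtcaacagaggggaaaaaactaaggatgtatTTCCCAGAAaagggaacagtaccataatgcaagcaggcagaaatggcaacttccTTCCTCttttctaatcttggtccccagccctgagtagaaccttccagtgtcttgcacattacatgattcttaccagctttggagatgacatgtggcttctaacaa
Fcgr3: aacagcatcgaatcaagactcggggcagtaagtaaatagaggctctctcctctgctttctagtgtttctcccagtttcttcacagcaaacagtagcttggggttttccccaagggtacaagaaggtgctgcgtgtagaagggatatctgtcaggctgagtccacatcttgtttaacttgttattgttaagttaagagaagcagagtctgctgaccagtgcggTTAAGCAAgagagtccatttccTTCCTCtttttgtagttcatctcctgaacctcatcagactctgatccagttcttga
Fcgr4: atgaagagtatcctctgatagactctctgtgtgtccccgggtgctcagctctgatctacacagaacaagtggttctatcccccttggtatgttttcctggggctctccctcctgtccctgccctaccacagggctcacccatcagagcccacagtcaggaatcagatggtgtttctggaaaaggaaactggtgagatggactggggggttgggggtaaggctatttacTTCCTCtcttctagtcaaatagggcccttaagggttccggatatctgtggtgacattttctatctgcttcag
Fcrls: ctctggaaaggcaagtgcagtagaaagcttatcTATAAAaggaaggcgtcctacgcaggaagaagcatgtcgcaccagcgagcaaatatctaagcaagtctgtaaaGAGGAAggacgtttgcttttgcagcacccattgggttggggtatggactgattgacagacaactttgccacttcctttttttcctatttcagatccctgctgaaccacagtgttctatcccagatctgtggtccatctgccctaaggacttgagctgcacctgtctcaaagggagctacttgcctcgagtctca

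The PU.1 core was found in 4 of 6 member promoters and in 28.3% of 27025 promoters of the same length. Its first base lay 55 bases before the start in Fcgr1, 6 in Fcgr3 (15 from the second start site), 22 in Fcgr4 and 144 in Fcrls. In the 3 receptor genes the letters read TTCCTC on the gene's strand, and in Fcrls they read GAGGAA. The longest run shared by any pair of the 6 promoters was 14 bases, ttccTTCCTCtttt, in Fcgr1 and Fcgr3, and it holds the motif. Fcgr1 also held TTCCCAGAA, a match to the STAT-binding GAS motif (TTCNNNGAA, 8.5% of all promoters), 109 bases before the start. Fcgr3 held a match to the C/EBP motif (TTGCNNAA, 10.8%), and Fcrls held a TATA box (TATAAA, 14.2%), which lay 217 bases before its start. AP-1 (TGANTCA, 7.9%) and the E-box (CACGTG, 7.2%) were in none of the 6. Fcer1g and Fcgr2b held none of the 6 motifs in these 300 bases. All motifs were searched on both strands. The 4 promoters with the PU.1 core covered genes with high H3K27ac at the start (Fcgr3, Fcgr1 and Fcrls) and with low H3K27ac there (Fcgr4), and Fcer1g, without it, was marked.

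The map of H3K27ac across the 39 windows is described first, with levels as tag counts scaled to the same total in every library (CPM). All windows are 1000 bp long, so levels of single windows can be compared between genes. Within 1 kb of a start were 10 of them (promoter windows), and 29 were further away (distal windows). By the deposited annotation 20 were intergenic, 9 intronic, 8 at promoters, 1 in an exon and 1 at a transcript end. The ratio of H3K27ac to input CPM had a median of 13.2 (wild type) and 11.2 (knockout) over member promoter windows, and of 5.45 and 5.99 over all promoter windows of the table. Over member distal windows the medians were 4.0 and 5.41, and over all distal windows 2.32 and 2.51.

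With no filter on low counts, 30 of 39 member windows in wild type and 33 of 39 in the knockout were higher in H3K27ac than in input (edgeR adjusted p under 0.05). Over all windows the shares were 52.5% and 55.8%. After the usual filter, which windows pass through their H3K27ac tags, 29 of 29 tested member windows in wild type and 27 of 27 in the knockout were called, beside 98.6% and 99% of all tested windows, so that count says nothing particular of the members. With TMM scaling, which centres the windows on each other, 6 of 31 member windows in wild type and 5 of 32 in the knockout were called, against 12.5% and 14.2% of all tested windows. The windows below the threshold in both genotypes without the filter were the 3 Fcrls windows farthest downstream, the Fcgr4 window 15064 bp downstream of the start and the Fcer1g window 4314 bp upstream. Of the 39 windows, 30 came from the site lists of both genotypes, 3 from that of wild type only and 6 from that of the knockout only (76.9%, 7.69% and 15.4%, against 75.5%, 16.3% and 8.18% of all windows).

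**Figure D1:**
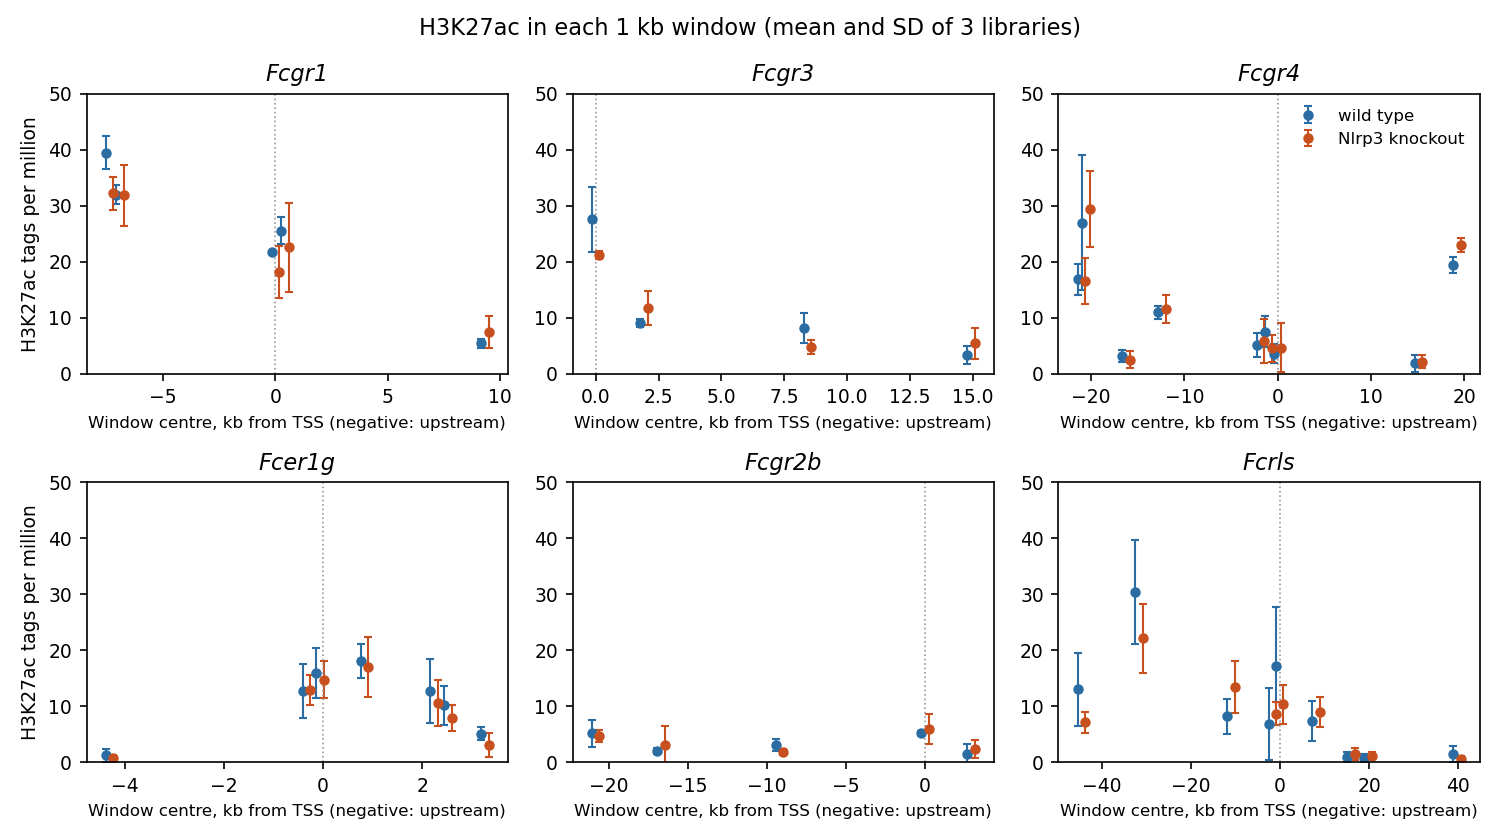
H3K27ac of each window (CPM, mean and SD of 3 libraries) against the distance of its centre from the TSS in kb, for wild type (blue) and knockout (orange), with the 2 genotypes shifted slightly sideways. The highest windows lie away from the start in Fcgr1, Fcgr4 and Fcrls and at the start in Fcgr3, while all Fcgr2b windows stay low.

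Fcgr1, on chromosome 3 (96282909-96293969, minus strand), encodes the high-affinity receptor for immunoglobulin G, an activating receptor. Its highest window was intergenic, 7366 bp upstream of the start (chr3:96300835-96301835), with 42.4, 36.5 and 39.5 CPM in wild-type replicates 1, 2 and 3 and 34.0, 28.8 and 33.9 CPM in the knockout replicates. All 3 knockout libraries were below all 3 wild-type libraries there. With TMM scaling the genotypes separated, in either direction, in 10.9% of all tested windows. This was 23.02 times input in wild type and 20.6 in the knockout, and it stood above 99.17% of distal windows in wild type. A window overlapping it by 533 bp had 32.0 CPM ± 1.72 (SD, n = 3) in wild type and 31.9 CPM ± 5.41 (n = 3) in the knockout. At the start (chr3:96293460-96294460, which holds the promoter printed above with its PU.1 core and GAS match) the wild-type libraries had 21.7, 21.6 and 21.97 CPM and the knockout libraries 22.95, 17.7 and 13.8 CPM. The wild-type libraries were nearly equal and the knockout libraries spread to both sides of them. The promoter windows, which overlap each other, held 38.1% of the gene's tags in wild type and 36.2% in the knockout.

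Fcgr3, on chromosome 1, encodes a low-affinity activating receptor. Its highest window was at the start (chr1:171058914-171059914, around the printed promoter), with 29.3, 21.1 and 32.4 CPM in wild type and 21.6, 20.3 and 21.5 CPM in the knockout. Of the 3 wild-type libraries, replicate 2 lay within the knockout range and the other two above it. The window stood at 14.8 times input in wild type and 12.7 in the knockout and held 57.1% and 48.9% of the gene's tags. The lowest fold change of its windows was at the transcript end, 8417 bp from the start (chr1:171050477-171051477), with 6.71, 6.68 and 11.3 CPM in wild type and 4.41, 6.17 and 3.86 CPM in the knockout. The groups did not overlap in that window, as in 10.9% of all tested windows with TMM scaling. The deposited tags there were 25, 30 and 48 against 20, 31 and 19.

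Fcgr4, also on chromosome 1 (171018926-171029761, plus strand), encodes an activating receptor of intermediate affinity. Its start was marked weakly: the window there (chr1:171018404-171019404) had 3.22, 2.23 and 5.43 CPM in wild type and 0.441, 9.15 and 4.46 CPM in the knockout. Knockout replicates 1 and 2 were the lowest and the highest of the 6 libraries. In wild type this window was not called above input even without the filter on low counts, at 1.89 times input, and it was called in the knockout, at 4.16 times input. The difference between these ratios was not tested. The other promoter window of the gene, 961 bp upstream, was called in both genotypes, at 4.738 and 4.499 times input. Only 11.7% of the gene's H3K27ac tags in wild type and 9.22% in the knockout lay in promoter windows.

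Most Fcgr4 tags came from distal windows. The highest was 20530 bp upstream (chr1:170997896-170998896), with 40.8, 18.9 and 21.3 CPM in wild type and 26.04, 37.2 and 25.0 CPM in the knockout. Wild-type replicate 1 was the highest of the 6 and the other two wild-type libraries the lowest, so the groups overlapped. It was above 97.2% of distal windows in wild type and lies between the starts of Fcgr2b and Fcgr4, which are transcribed away from each other. A Fcgr4 window 21025 bp upstream overlaps it by 505 bp, and the farthest Fcgr2b window, 20866 bp upstream of that gene, overlaps the latter by 36 bp, so the nearest-TSS rule splits 1 stretch of chromatin between the 2 genes. On the other side, 19184 bp downstream of the Fcgr4 start and past the gene's end (chr1:171037610-171038610), a window chosen after its values were seen had 19.1, 20.9 and 18.2 CPM in wild type and 24.3, 21.9 and 22.7 CPM in the knockout. There the knockout libraries were all higher on the scale of total tags, but with TMM scaling the groups overlapped, and the fitted log2 fold change was 0.25 (95% interval -0.27 to 0.76).

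Fcer1g, on chromosome 1 (171229572-171234349, minus strand), encodes the Fc receptor gamma chain that the activating receptors need for signalling. Its mark was spread over the start and the first intron. The window at the start (chr1:171233911-171234911) had 20.4, 15.8 and 11.6 CPM in wild type and 17.2, 15.9 and 11.0 CPM in the knockout. The next one, centred 836 bp into the gene, was the highest, with 17.98, 15.1 and 21.3 CPM in wild type and 18.8, 10.9 and 21.3 CPM in the knockout. Both windows had libraries of either genotype from low to high. They stood at 15.7 and 15.8 times input in wild type and at 12.01 and 13.8 in the knockout. The 3 promoter windows, which overlap, held 61.6% of the gene's tags in wild type and 66.7% in the knockout.

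Fcgr2b, on chromosome 1 (170960558-170976071, minus strand), encodes the inhibitory receptor. Its highest window was at the start (chr1:170975582-170976582), with 5.10, 5.57 and 4.96 CPM in wild type and 5.74, 8.75 and 3.45 CPM in the knockout. The knockout libraries lay on both sides of the wild-type ones. This was 5.09 times input in wild type and 3.46 in the knockout, and above 43.5% of promoter windows in wild type. Each of the other Fcgr2b windows had at most 5.16 CPM in wild type and 4.73 CPM in the knockout on average.

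Fcrls, on chromosome 3 (87250736-87263765, minus strand), encodes an Fc receptor-like protein with a scavenger receptor domain and is known as a marker of homeostatic microglia. Its start (chr3:87263141-87264141) had 28.7, 8.01 and 14.9 CPM in wild type and 14.1, 9.35 and 7.51 CPM in the knockout. The highest window was intergenic, 31747 bp upstream (chr3:87294771-87295771), with 41.1, 23.8 and 26.5 CPM in wild type and 28.02, 22.5 and 15.8 CPM in the knockout. A window 44651 bp upstream (chr3:87307675-87308675) had 20.4, 10.7 and 8.03 CPM in wild type and 8.61, 7.76 and 5.07 CPM in the knockout. In all 3 windows wild-type replicate 1, the library with 0 tags at Y-linked promoters, was the highest of the 6, and the groups overlapped. The part of that library's source in these values was not tested.

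**Figure D2:**
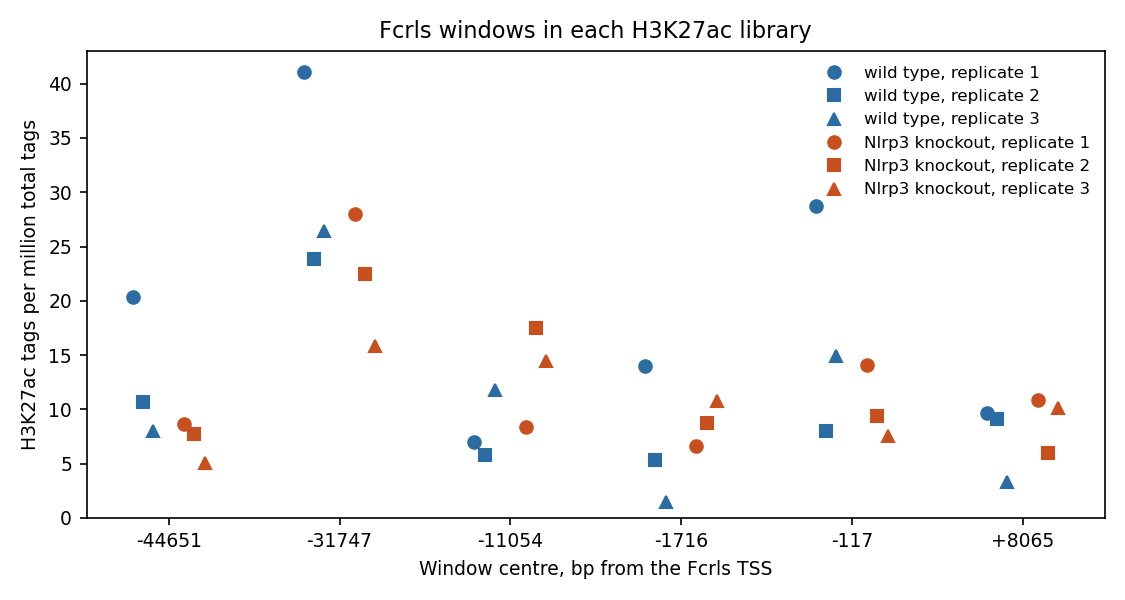
H3K27ac in CPM (linear axis) of the 6 tested Fcrls windows in each library, ordered by distance from the TSS in bp, with genotype by colour and replicate by marker. Wild-type replicate 1 stands highest at 44651, 31747, 1716 and 117 bp upstream, whereas 11054 bp upstream knockout replicates 2 and 3 are the highest.

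In wild type the order of the windows nearest the start was Fcgr3 (27.6 CPM ± 5.79), Fcgr1 (21.8 ± 0.192), Fcrls (17.2 ± 10.5), Fcer1g (15.9 ± 4.41), Fcgr2b (5.21 ± 0.316) and Fcgr4 (3.63 ± 1.64; SD, n = 3 for each). Only the ranges of Fcer1g and Fcgr2b did not overlap among neighbours in that order. In the knockout the order was Fcgr3, Fcgr1, Fcer1g, Fcrls, Fcgr2b and Fcgr4, from 21.1 to 4.69 CPM, and the ranges of all neighbours overlapped. Within single knockout libraries Fcgr1 was above Fcer1g, Fcer1g above Fcrls and Fcrls above Fcgr2b in 3 of 3. Fcgr3 was above Fcgr1 in 2 and Fcgr2b above Fcgr4 in 1. In wild type each step of its order held in 2 of 3 libraries, except Fcer1g above Fcgr2b, which held in 3. By the highest window of each gene the wild-type order was Fcgr1, Fcrls, Fcgr3, Fcgr4, Fcer1g and Fcgr2b, from 39.5 to 5.21 CPM. In both genotypes the ranges of Fcer1g and Fcgr2b were again the only neighbours that did not overlap. Fcgr4 thus changed place with the choice of window, from last at the start to 4th by its highest window in wild type and 2nd in the knockout.

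The comparison of genotypes asks whether the loss of Nlrp3 went with a change of the mark at these genes. For each gene all windows were summed. For Fcgr1 the sums were 125, 125 and 123 CPM in wild type and 137, 104 and 96.4 CPM in the knockout. Those of Fcgr3 were 49.4, 40.3 and 55.3 CPM in wild type and 40.6, 44.4 and 44.7 CPM in the knockout. For Fcgr4 they were 114, 88.6 and 83.6 CPM in wild type and 106, 100.0 and 94.99 CPM in the knockout. In each of these 3 genes the ranges of the genotypes overlapped. Fcer1g had 73.3, 77.7 and 77.0 CPM in wild type and 75.2, 54.1 and 71.4 CPM in the knockout. Fcgr2b had 15.6, 17.4 and 17.7 CPM in wild type and 20.5, 20.3 and 12.99 CPM in the knockout. Fcrls had 122, 67.4 and 69.9 CPM in wild type and 79.0, 75.6 and 67.2 CPM in the knockout. The single high value of Fcrls was wild-type replicate 1, and these 3 genes overlapped between genotypes too.

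**Figure D3:**
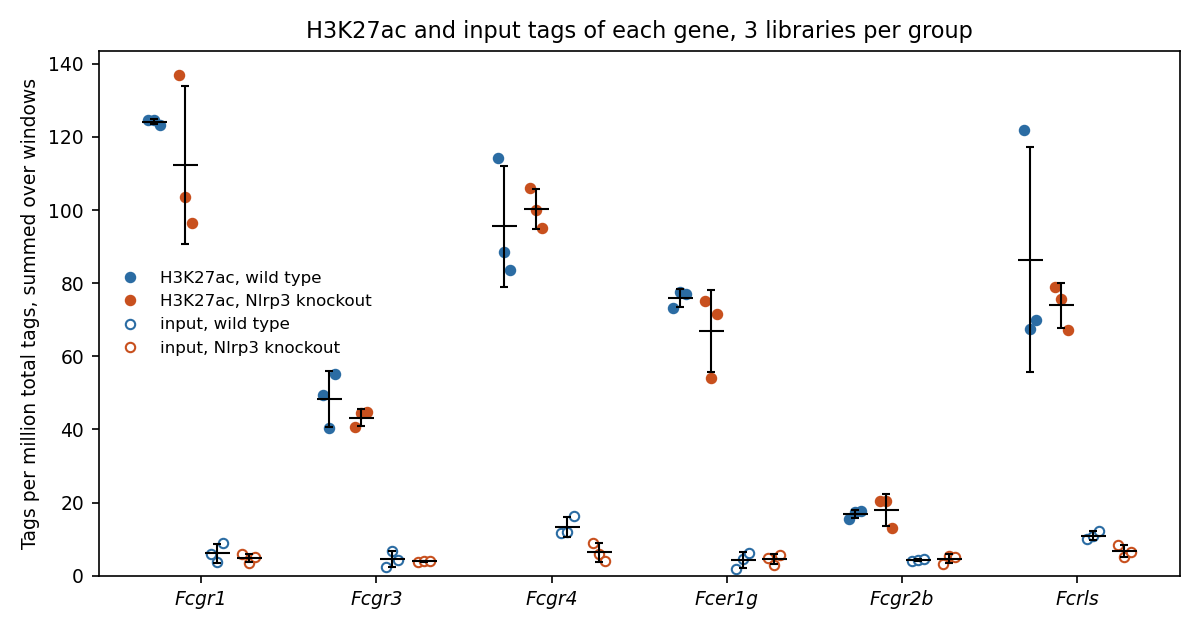
CPM (scaled to the total tags of a library) summed over the windows of each gene (linear axis from 0), 1 point per library, filled for H3K27ac and open for input, with the mean and SD of each group of 3 in black. H3K27ac lies above input in all 6 genes and overlaps between genotypes in each, while the open points of Fcgr4 and Fcrls are lower in the knockout.

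None of the 6 genes was called (edgeR quasi-likelihood test, Benjamini-Hochberg adjustment over 12148 genes, threshold 0.05), and none had an unadjusted p under 0.05. DESeq2 also called 0. Over all genes 25 were called, 0.206%. The fitted log2 fold change, knockout over wild type, was -0.15 for Fcgr1 (SE 0.14, 95% interval -0.43 to 0.13), -0.14 for Fcgr3 (-0.56 to 0.28), 0.08 for Fcgr4 (-0.23 to 0.38), -0.17 for Fcer1g (-0.54 to 0.19), 0.07 for Fcgr2b (-0.55 to 0.70) and -0.21 for Fcrls (-0.58 to 0.16). The adjusted p lay between 0.961 and 0.997. Of the 6 values 2 were positive and the median was -0.15, beside 50.2% positive and a median of 0.00 over all genes tested. In none of the 6 genes did the genotypes separate without overlap, and 11.3% of all tested genes did so. The sign of Fcrls rested on 1 library: without wild-type replicate 1 its log2 fold change was 0.09. The sign also changed with the windows that were summed. It was positive, at 0.12, with windows within 20 kb of the start, and negative, at -0.72, with the window at the start alone.

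Of the 39 windows 34 were tested and 0 were called by edgeR or by DESeq2, while 24 windows of 40370 were called over the whole table, 0.0595%. At an unadjusted p under 0.05 there was 1 member window (2.94% of 34, against 4.69% of all tested windows), the Fcrls window 44651 bp upstream, which fitted a log2 fold change of -0.86 (95% interval -1.68 to -0.05, edgeR adjusted p = 0.998). Without wild-type replicate 1 the value was -0.43. The other Fcrls windows pointed both ways, with -0.46 at 31747 bp and -0.72 at 117 bp upstream and 0.74 at 11054 bp upstream. Without wild-type replicate 1 the first 2 of these were -0.22 and -0.17. Libraries of the genotypes did not overlap, on the TMM scale, in 2 of 34 member windows, beside 10.9% of all tested windows. They were the window at the Fcgr3 transcript end (log2 fold change -0.77, 95% interval -1.72 to 0.18) and the Fcgr1 window 7366 bp upstream (-0.28, -0.70 to 0.15). The smallest p among the windows of Fcgr4, Fcer1g and Fcgr2b belonged to windows with log2 fold changes of -0.73, -0.66 and -0.71, and each interval included 0. Leaving out 1 library moved them to between -1.06 (without knockout replicate 1) and -0.35 (without knockout replicate 2) for Fcgr4. The values were between -1.26 (without knockout replicate 3) and -0.18 (without knockout replicate 2) for Fcer1g, and between -1.10 (without knockout replicate 3) and -0.41 (without wild-type replicate 1) for Fcgr2b.

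**Figure D4:**
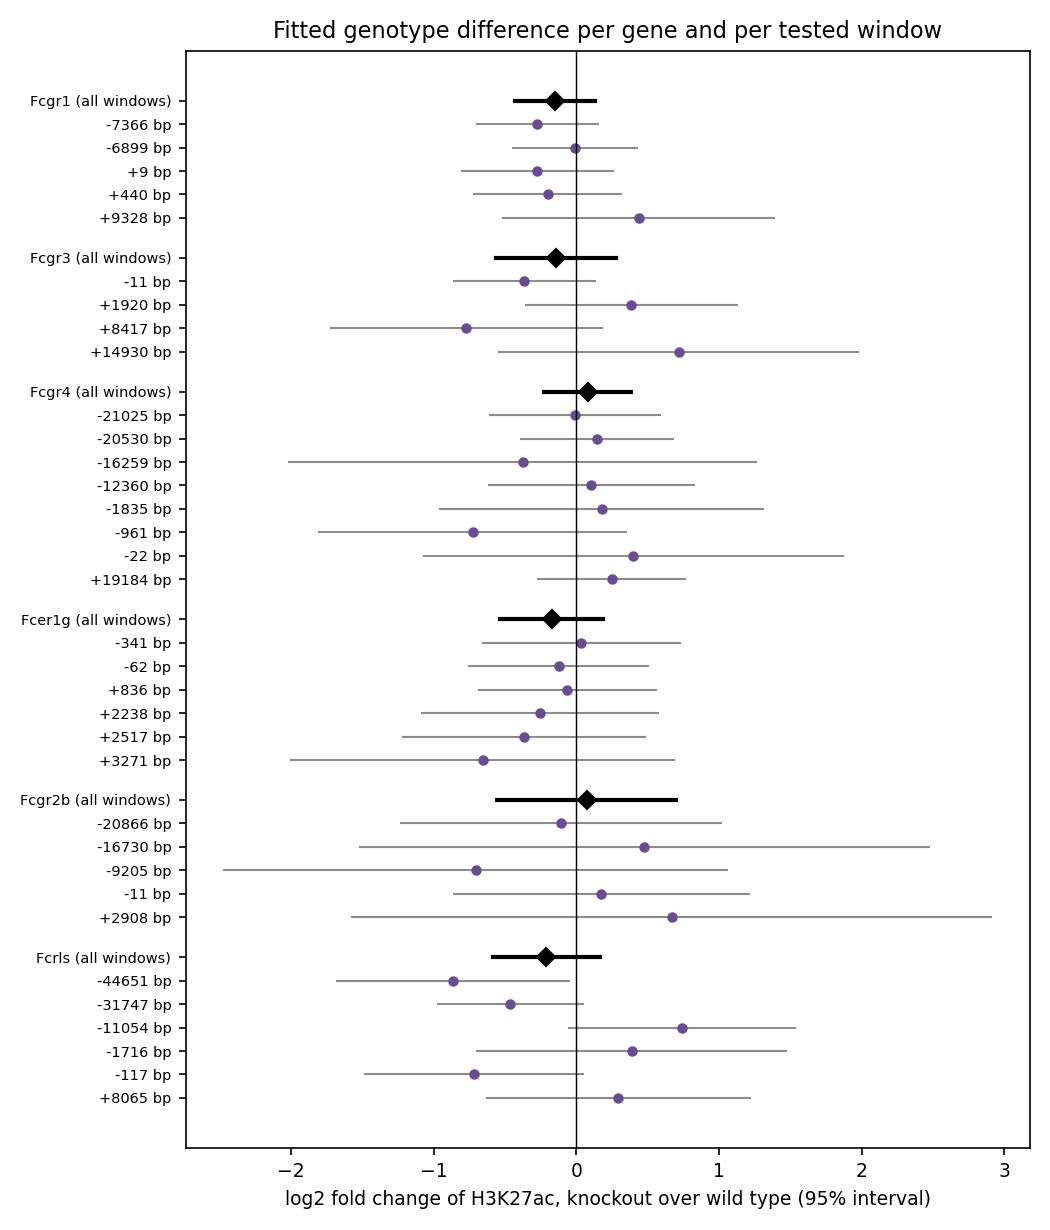
Fitted log2 fold change of H3K27ac, knockout over wild type (linear axis, 95% intervals), for the sum of each gene (black diamonds) and for its 34 tested windows (purple points, labelled by distance from the TSS). The interval of every gene sum spans 0, and 1 window, 44651 bp upstream of Fcrls, has an interval that does not.

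Input chromatin was compared in the same way. Summed input at Fcgr4 was 11.7, 11.98 and 16.4 CPM in wild type and 9.05, 6.00 and 3.99 CPM in the knockout. At Fcrls it was 9.96, 10.8 and 12.2 CPM in wild type and 8.48, 5.10 and 6.57 CPM in the knockout. In both genes all knockout input libraries were below all wild-type ones, as the libraries of 15.6% of all tested genes separated in either direction. In a fit of the input libraries the log2 fold change was -0.78 for Fcgr4 (SE 0.23, edgeR adjusted p = 0.393) and -0.45 for Fcrls (SE 0.22, adjusted p = 0.927), and 0.2% of 6511 genes were called. An unadjusted p under 0.05 was reached by 344 genes of that fit. Fcgr4 was among them (edgeR unadjusted p = 0.00117) and Fcrls was not (0.052). The other 4 genes had input log2 fold changes from -0.04 to 0.35.

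The ratio of H3K27ac to input at Fcgr4 was 6.93 in wild type and 14.7 in the knockout, although the H3K27ac sums overlapped. The difference between these ratios had a log2 value of 1.06 in 1 fit of all 12 libraries (SE 0.31, edgeR adjusted p = 0.505) and was not called. That fit called 0 of 12468 genes (0%), while 747 had an unadjusted p under 0.05. Fcgr4 was among these (edgeR unadjusted p = 0.00146). The median of this difference over all genes was 0.19. At Fcrls the ratio was 7.58 in wild type and 10.3 in the knockout (log2 difference 0.43, SE 0.33, adjusted p = 0.911). The ratios of the other genes lay closer together: 18.8 and 20.95 for Fcgr1, 9.90 and 9.99 for Fcgr3, 16.2 and 13.6 for Fcer1g and 3.63 and 3.63 for Fcgr2b. The 2 ratios of Fcgr4 rest on 54 to 59 input tags per library in wild type and on 17 to 63 in the knockout.

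The rest of the pathway was read from 4 lists of genes on the same per-gene fit, and none of their genes was called. Of 26 genes of activating signalling downstream of the receptors (Syk, Src-family kinases, phosphoinositide 3-kinases and the oxidase subunits), 24 were tested and 14 were positive, with a median log2 fold change of 0.03. Their smallest p values belonged to Lat2, an adaptor of immune receptors (0.41, SE 0.17, edgeR adjusted p = 0.738), and to Pik3cd, a catalytic subunit of phosphoinositide 3-kinase (0.29, adjusted p = 0.892). Syk, the kinase recruited by the gamma chain, had -0.14, and its promoter stood at 13.9 times input in wild type and 14.1 in the knockout. All 14 genes of inhibitory signalling were tested and 4 were positive, with a median of -0.10. Among them were Lair1, an inhibitory collagen receptor (-0.23, adjusted p = 0.907), and Ptpn6, a phosphatase recruited by ITIM motifs (0.31, adjusted p = 0.929).

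Of 13 other Fc receptor genes, 8 had a window and 5 were tested, with 3 positive and a median of 0.10. Pigr, the receptor that carries polymeric immunoglobulins across epithelia, had 2.42 (SE 0.88, edgeR adjusted p = 0.623), and Fcrlb, an intracellular Fc receptor-like protein, had 0.45 (adjusted p = 0.932). Fcgrt, the neonatal Fc receptor that recycles immunoglobulin G, had -0.32, with a promoter at 7.83 times input in wild type and 6.58 in the knockout. Of 10 other ITAM receptors and adaptors of myeloid cells 5 were tested and 4 were positive, with a median of 0.08. There Clec5a, a lectin that signals through an ITAM adaptor, had 0.68 (adjusted p = 0.897) and Clec7a, the beta-glucan receptor, had -0.81 (adjusted p = 0.931).

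The genes whose summed H3K27ac followed each member most closely over the 6 H3K27ac libraries were sought among 6073 genes at or above the median abundance. By Pearson's r they were Ddx47 (0.994) and Mir6932 (0.984) for Fcgr1, Rnft1 (0.99) and Bcl2l11 (0.984) for Fcgr3, and Mylip (0.984) and Gm36738 (0.972) for Fcgr4. For Fcer1g they were Pnrc1 (0.996) and 1700095J12Rik (0.991), for Fcgr2b Vps37b (0.992) and Pdcd4 (0.991), and for Fcrls Apbb2 (0.979) and Psme2 (0.972). None of the 6 members was among the closest genes of another. With 6 libraries that share their depth and scaling, high values of r are common: the 99th percentile over the 6073 genes lay between 0.87 and 0.921.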

How the data were processed

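The deposited table gives unnormalized tag counts for every window and library. Its windows of 1000 bp were centred on merged sites and counted by HOMER annotatePeaks.pl on mm10, per the file headers. DESeq2 is also named in the submitters' processing notes. How reads were aligned and duplicates treated is not given in the sources used here. Scaled counts, also deposited, were not used.

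Windows belong to the nearest TSS in the table. The members, gene lists and motifs were chosen with earlier results of these data known. Windows and per-gene sums were compared with edgeR 4.0.16 (R 4.3.3; TMM, filterByExpr, quasi-likelihood test, Benjamini-Hochberg threshold 0.05), 3 against 3 libraries with no covariate. SE is the absolute fitted log2 value divided by the root of the F statistic. H3K27ac was tested against input with total tags as library size. CPM is scaled to the total tags of a library, and ratios to input had 0.5 CPM added to both. Of the member windows, 10 overlap the next one and share tags with it. The input fit and the 12-library fit were added after seeing the data. The 12-library fit had total tags as library sizes, without TMM. It let H3K27ac and input share a trend of spread, although input counts are far lower. The main genotype fits left input out for that reason. DESeq2 1.42.0 was an alternative. Labels do not say that replicates are separate animals, so p-values measure the spread between these libraries. Wild-type replicate 1 differed in source from replicates 2 and 3. It had 0 Y-linked promoter tags in H3K27ac and in input, against 230 and 199 (H3K27ac) and 13 and 10 (input). Apart from that library, the spread may be technical. Scripts were tested on simulated counts. Named were the 6 members, and for each the window nearest the start, the highest, the one with the smallest p and any called. Also named were 2 most alike genes of each, and in lists any called gene or the 2 with the smallest p. Syk and Fcgrt were named afterwards for their roles, and Csf3r as the only marker of its list with a promoter window.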

Additional observations from a re-analysis of the deposited data

How the results depend on the processing

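Member genes and member windows called between genotypes stayed at 0 under every alternative run. Over the whole table the 25 genes called became 16 with total tags as library sizes, 48 without the filter on low counts, 15 with the replicate number as a block, 1 with windows within 1 kb alone, and 8 to 18 when 1 library was left out (8 without wild-type replicate 1). The 24 windows called became 68 with DESeq2, 68 without the filter, and 10 to 29 when 1 library was left out. Windows above input fell with TMM from 29751 to 4124 in wild type (members from 29 to 6) and from 31125 to 5251 in the knockout (members from 27 to 5), since TMM centres all windows.

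The sign of some fitted log2 fold changes, none of them called, turned when 1 library was left out; the cause was not tested. Fcgr2b ranged from -0.002 (without wild-type replicate 1) to 0.198, Fcrls from -0.363 to 0.085 (without wild-type replicate 1) and Fcgr4 from -0.033 (without wild-type replicate 3) to 0.199. Among windows, that of Fcer1g 62 bp upstream ranged from -0.326 to 0.058 (without wild-type replicate 1) and that at 836 bp from -0.367 to 0.203 (without knockout replicate 2). The Fcgr4 window 22 bp upstream ranged from -0.408 (without knockout replicate 2) to 0.937, the one 20530 bp upstream from -0.025 (without wild-type replicate 2) to 0.529, and the Fcgr2b window 11 bp upstream from -0.168 (without knockout replicate 2) to 0.396. With windows within 20 kb Fcrls had 0.118, and with windows within 1 kb Fcgr4 had -0.264.

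The replicate numbers did not pair wild-type with knockout H3K27ac libraries: same-numbered libraries deviated from their group means with r of -0.001 to 0.003. With the replicate block 21 windows and 15 genes were called between genotypes, none a member, and the Fcgr4 window 22 bp upstream had -0.042. In wild type each H3K27ac library was weakly tied to the input of its own number, with r of 0.016, 0.009 and 0.01. Other numbers gave lower values. In the knockout this held for replicates 1 and 3 but not for 2. The main tests against input did not use these pairs. With the replicate block 28 member windows in wild type and 27 in the knockout were called above input. The difference between ratios was not tested with a block. Adding the 2 Fcgr4 windows beyond 20 kb upstream to Fcgr2b, chosen after seeing the data, gave Fcgr2b 0.08 (SE 0.18, edgeR adjusted p = 0.993). Fcgr2b had the fewest H3K27ac tags of the 6 genes, 58 to 102 per library, and the widest interval.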
